A study of Mus musculus with 8 samples.

Results

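The 10 genes described here encode subunits of the AMPA and NMDA classes of ionotropic glutamate receptor: Gria1, Gria2, Gria3 and Gria4 for AMPA receptors, and Grin1, Grin2a, Grin2b, Grin2c, Grin2d and Grin3a for NMDA receptors. They were taken by gene symbol from the 23688 symbols of a 2-colour Agilent mouse array, on which 16 of the 39429 non-control probes carry one of these names. All 10 genes were among the 16774 genes kept by a filter on dim probes, although Grin2d passed only through the Cy5 channel.

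The series compared Tet1 knockout (KO) with wild-type (WT) mice in brain cortex and hippocampus. Tet1 encodes an enzyme that oxidises 5-methylcytosine in DNA, a step toward removal of the methyl mark. The 4 groups were WT cortex, Tet1 KO cortex, WT hippocampus and Tet1 KO hippocampus, with 2 samples each. All mice were naive, and every sample is labelled with the genetic background "129 C57BL6". The labels give no age or sex, do not state which part of Tet1 was deleted or how, and do not say whether replicates came from separate animals or whether the tissues of one number came from one animal. The p-values therefore rest on the spread of these samples alone, and that spread may be technical. Each of the 4 arrays carried 1 WT sample in Cy3 and the KO sample of the same tissue and number in Cy5, so genotype and dye cannot be told apart in any KO over WT value. A comparison of tissues stays within one dye.

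AMPA receptors carry most of the fast excitatory current at brain synapses and assemble as tetramers of GluA subunits. The subunit encoded by Gria2 makes the channel nearly impermeable to calcium after RNA editing of its transcript. NMDA receptors need an obligatory subunit, encoded by Grin1, together with subunits of the Grin2 or Grin3 families, and pass calcium when glutamate binding coincides with depolarisation. In the forebrain the Grin2a and Grin2b subunits are the main partners of Grin1, and their balance shifts during postnatal development.

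Probes of 60 bases were printed for each gene, and 6 genes had more than 1 probe. The first 30 bases of 7 probes are shown because the results for Gria1, Gria2, Gria4 and Grin1 turn on them. In each, the letters are those of the probe, 5′ to 3′, with no part marked. The brighter of a gene's probes stands for the gene in the gene-level fits.

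Gria1, only probe: catttgatcagacactaaatatttggggta
Gria2, brighter probe: tttcatactttacctaatggcaatctggag
Gria2, dimmer probe: tttaatttgggggatattccttggggaaaa
Gria4, brighter probe: cagcacccagcacagtgcctggcatattgt
Gria4, dimmer probe: ttgaccactatggacgtagagttaattaca
Grin1, brighter probe: aagagggctgagccttctcttctgtctgca
Grin1, dimmer probe: tttgcaaaaccaaaaagacacagtgctgcc

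The longest run of bases that any member's probe shared with a probe of another member, on either strand, was 10 of 60. The scanner files place the Gria1 probe at chr11:57143613-57143672 of mm9, on the plus strand, from base 5531 of its transcript. The Gria2 probes lie on the minus strand at chr3:80488858-80488917 (brighter) and chr3:80495725-80495784 (dimmer). The Gria4 probes lie on the minus strand at chr9:4417896-4417955 (brighter) and chr9:4502385-4502444 (dimmer), and the Grin1 probes at chr2:25146927-25146986 (brighter) and chr2:25147922-25147981 (dimmer), also on the minus strand. The files do not say whether a probe lies in coding sequence or in a UTR.

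Signal was even across the arrays. Between 49.7% and 51.7% of probes were well above background in Cy3 and between 66.6% and 67.2% in Cy5, and no spot of these arrays was saturated in either dye. The tissue labels were checked against marker genes: 8 of 10 cortical markers were higher in WT cortex and 8 of 9 hippocampal markers were lower there. In KO, 7 of 10 cortical markers were higher in cortex, and of the hippocampal markers 8 were lower and 1, Wfs1, was higher. The cortical marker Fezf2 read 10.11 and 10.33 in WT cortex against 10.68 and 10.48 in WT hippocampus. All 9 striatal markers were also higher in cortex in both genotypes, with summed signals of 179528 and 216201 in WT cortex and of 28725 and 33044 in WT hippocampus. Choroid plexus markers were uneven between samples, from 4955 to 271974 in summed signal, and the highest value was that of WT hippocampus replicate 2. That sample also had the highest summed thalamic signal, 29469, against 11029 in the other WT hippocampus sample. For Tet1 itself, the brightest of its 3 probes gave a KO over WT log2 ratio of -0.18 ± 0.05 (SE, n = 4 arrays, adjusted p = 0.0811). The dimmer probes gave -0.22 ± 0.05 (adjusted p = 0.0539) and 0.21 ± 0.05 (adjusted p = 0.0615), so the probes went in opposite directions, each on all 4 arrays, and the one above 0 was not well above background on any array in WT. Since the deleted part is not stated, no Tet1 probe could check the genotype labels.

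**Figure D1:**
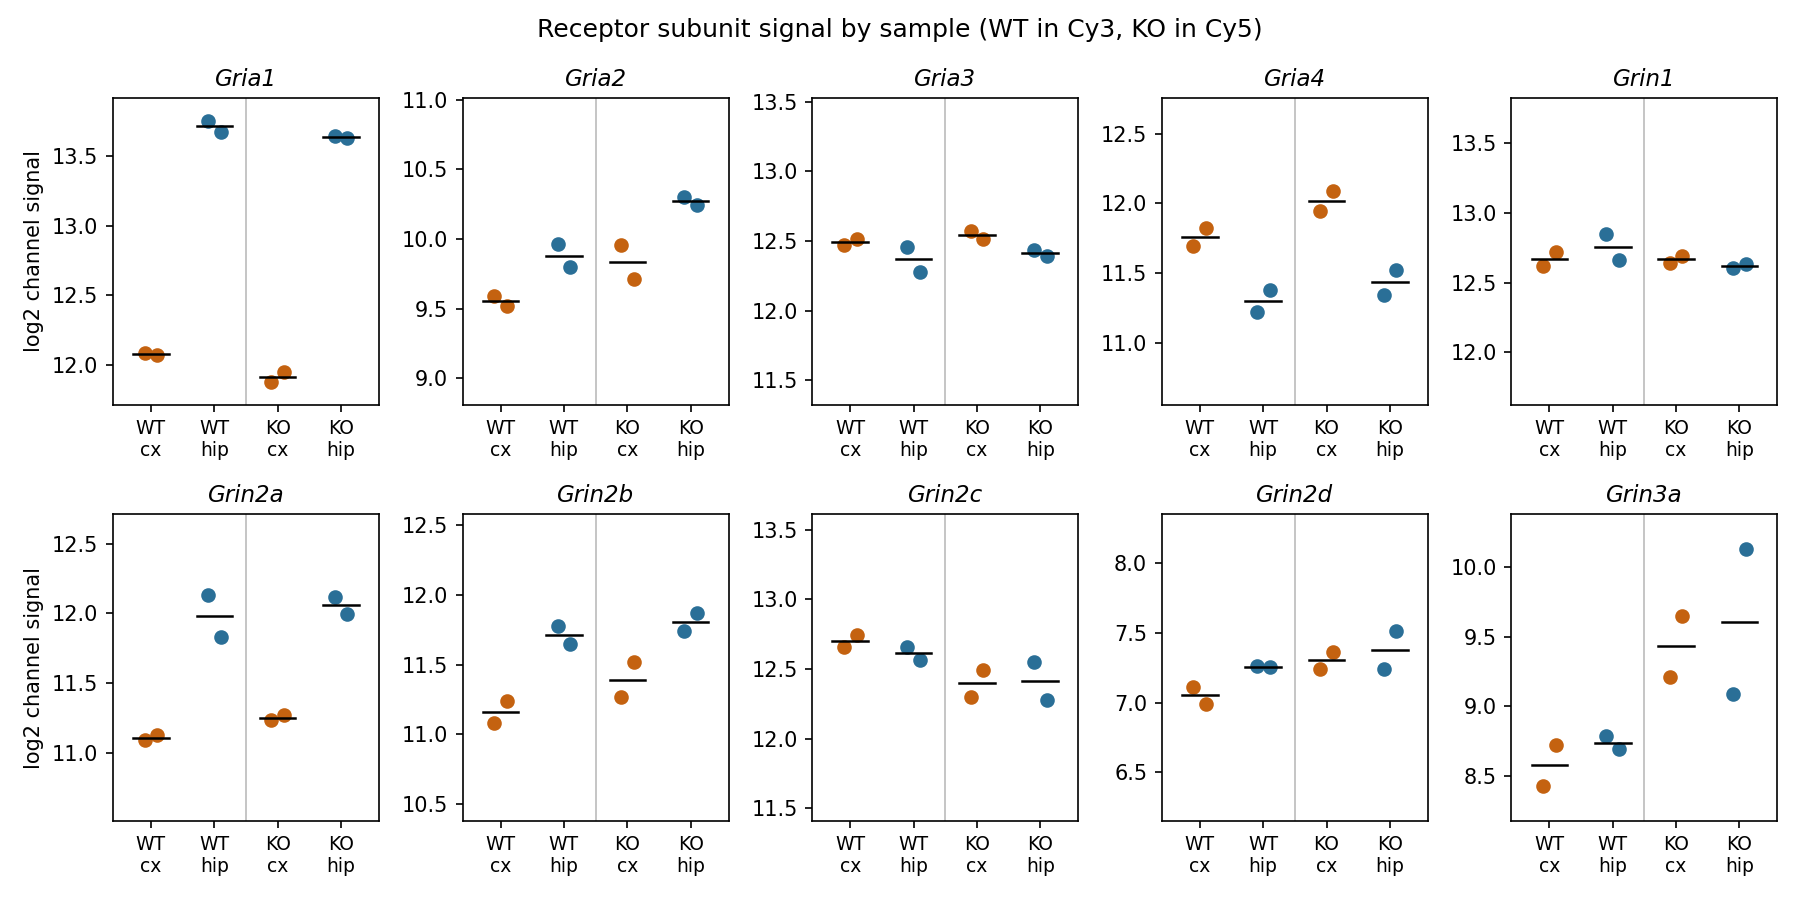
Signal of the brightest probe of each subunit in the 8 samples, as log2 of the normalised channel signal (y axis; each panel has its own range) for WT cortex, WT hippocampus, KO cortex and KO hippocampus (x axis). Points are samples, orange for cortex and blue for hippocampus, and black lines are means of 2; WT samples are in Cy3 and KO samples in Cy5, so only points on one side of the grey line share a dye. The Gria1 points separate the tissues most, and the Grin3a points of KO hippocampus lie at 9.09 and 10.13.

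The first comparison asked how the subunits differ between cortex and hippocampus, within WT and within KO. In WT, Gria4 was higher in cortex and Gria1, Grin2a and Grin2b were lower, so 4 of 10 subunits passed the test at an adjusted p under 0.05. Of all genes tested, 15.0% passed in either direction (7.20% higher and 7.77% lower in cortex). In KO the same 4 subunits passed in the same directions, and Gria2 was also lower in cortex, where 14.8% of all genes passed (7.54% higher and 7.29% lower). The median cortex over hippocampus difference of the 10 subunits was -0.18 on the log2 scale in WT and -0.12 in KO, beside -0.03 and -0.01 over all genes. Without Grin2d, which was not well above background in any WT sample, the medians of the other 9 were -0.16 and -0.17. Of the genes called, 48.1% were higher in cortex in WT and 50.9% in KO, against 72.8% and 73.5% with no normalisation between arrays. The WT and KO comparisons come from the 2 channels of the same arrays and so are not independent of each other.

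Among AMPA subunits, Gria1, which encodes the GluA1 subunit inserted at synapses during plasticity, had the largest difference of the 10. Its log2 signals were 12.09 and 12.07 in WT cortex and 13.75 and 13.67 in WT hippocampus. In KO they were 11.88 and 11.95 in cortex and 13.64 and 13.63 in hippocampus. The tissues did not overlap in either genotype, and replicates of a group lay within 0.1 of each other. The difference was -1.63 ± 0.07 (SE) in WT (95% interval -1.79 to -1.47, adjusted p = 6.30e-05), a 3.10-fold lower signal in cortex. In KO it was -1.72 ± 0.07 (95% interval -1.88 to -1.56, adjusted p = 5.66e-05). By p-value Gria1 stood at place 18 of the 16774 genes in WT and at place 14 in KO. In these bulk samples, fewer cells that express a gene and less of its RNA per cell cannot be told apart.

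Gria4, whose subunit forms fast-gating receptors and is known from interneurons among other cells, differed in the opposite direction. Its brighter probe read 11.70 and 11.82 in WT cortex against 11.22 and 11.38 in WT hippocampus, and 11.95 and 12.09 in KO cortex against 11.34 and 11.52 in KO hippocampus. All cortex samples lay above the hippocampus samples of their genotype. The difference was 0.46 ± 0.10 in WT (95% interval 0.23 to 0.69, adjusted p = 0.0218) and 0.58 ± 0.10 in KO (95% interval 0.36 to 0.81, adjusted p = 0.00847). The dimmer probe, which the files place from base 1566 of a different transcript model, gave 0.82 ± 0.09 in WT and 0.73 ± 0.09 in KO (adjusted p = 0.00205 and 0.00335 in the fit over 26017 probes). Both Gria4 probes thus passed in both genotypes, in a fit where 12.3% of all probes passed in WT and 11.5% in KO. Of the 8 inhibitory neuron markers, 7 were above 0 in cortex over hippocampus and 1, Lhx6, was below 0, in each genotype. Called higher in cortex were 3 of 8 in WT and 4 of 8 in KO, beside 7.20% and 7.54% of all genes. The summed signal of the 8 markers was 150021 and 155800 in WT cortex and 129739 and 131769 in WT hippocampus. In KO it ran from 156706 to 164755 in cortex and from 121944 to 139168 in hippocampus. The part of these cells, and of the striatal signal, in the Gria4 difference was not tested.

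Gria2, the subunit that limits calcium entry, read 9.59 and 9.52 in WT cortex against 9.96 and 9.80 in WT hippocampus. In KO it read 9.96 and 9.71 in cortex against 10.30 and 10.25 in hippocampus. The groups did not overlap in either genotype, yet the difference of -0.33 ± 0.10 in WT (95% interval -0.57 to -0.09) did not pass (adjusted p = 0.0776), while that of -0.44 ± 0.10 in KO (95% interval -0.68 to -0.20) did (adjusted p = 0.0298). The test of the difference between genotypes gave an adjusted p of 1 for every subunit, so Gria2 was not shown to differ between them. Its KO call was lost with no normalisation between arrays (-0.31, adjusted p = 0.184). It was also lost without any one array (differences from -0.56 to -0.32), in fits that called fewer of all genes too. The dimmer Gria2 probe gave -0.38 ± 0.18 in WT and -0.48 ± 0.18 in KO and passed in neither. Gria3, an X-linked subunit gene, was 0.13 ± 0.08 higher in cortex in both genotypes and passed in neither (adjusted p = 0.362 and 0.358). Its dimmer probe gave 0.27 ± 0.10 in WT (adjusted p = 0.145 in the fit over probes). In KO that probe had means of 11.12 in cortex and 10.91 in hippocampus.

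**Figure D2:**
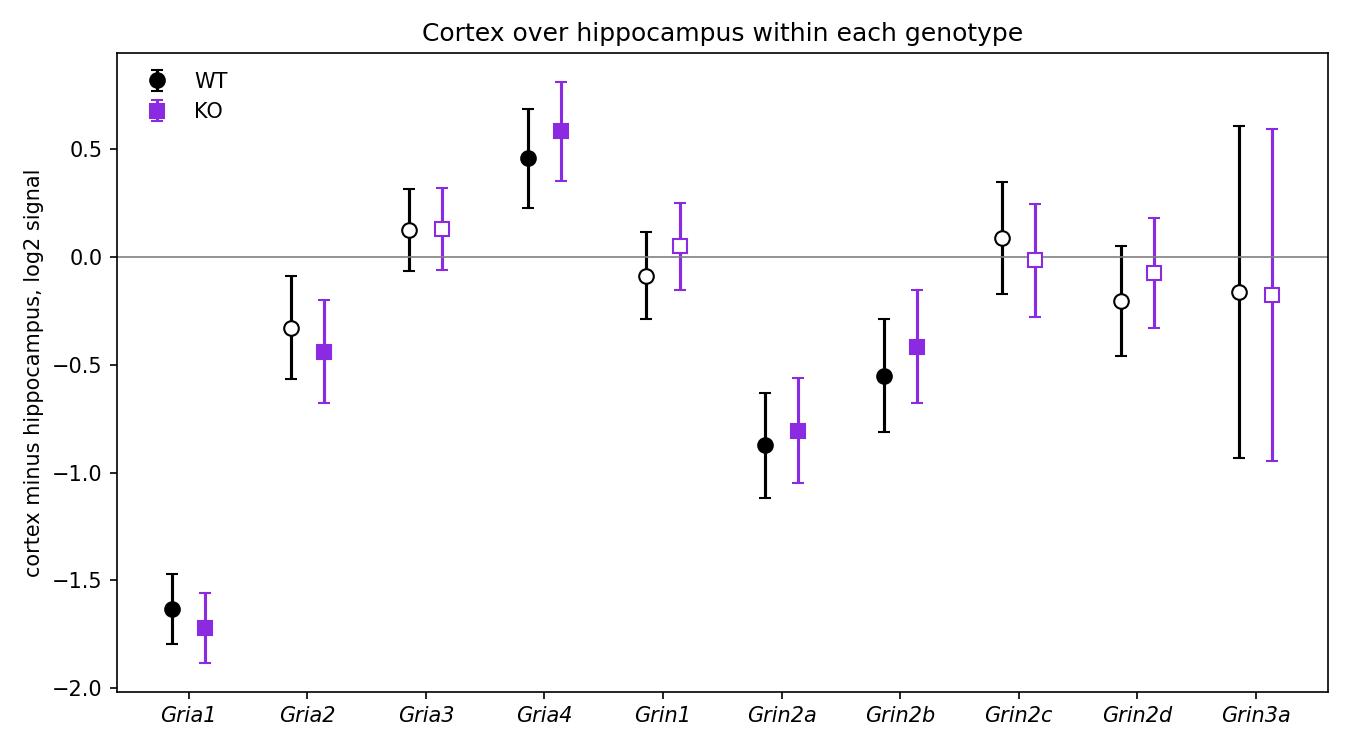
Cortex minus hippocampus difference in log2 signal (y axis) for each subunit (x axis) in WT (black circles) and KO (purple squares), with 95% intervals from the fit over 8 samples. Filled symbols passed at an adjusted p under 0.05 and open symbols did not. Gria1, Grin2a and Grin2b lie below 0 and Gria4 above 0 in both genotypes, and the intervals of Gria3, Grin1, Grin2c, Grin2d and Grin3a span 0 in both; the WT value of Grin2d comes from signals not well above background.

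Among NMDA subunits, Grin2a, which encodes the GluN2A subunit typical of mature synapses, had the largest difference. Its brighter probe read 11.09 and 11.13 in WT cortex against 12.13 and 11.83 in WT hippocampus, and 11.24 and 11.27 in KO cortex against 12.12 and 11.99 in KO hippocampus. Cortex samples lay below all hippocampus samples of their genotype, and the difference was -0.87 ± 0.10 in WT (95% interval -1.12 to -0.63, adjusted p = 0.00202) and -0.80 ± 0.10 in KO (95% interval -1.05 to -0.56, adjusted p = 0.00292). That is a 1.83-fold lower signal in WT cortex. The dimmer Grin2a probe had the same sign, at -0.60 ± 0.19 in WT and -0.54 ± 0.19 in KO, and passed in neither (adjusted p = 0.0857 and 0.127).

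Grin2b, which encodes the GluN2B subunit prominent in early life, read 11.08 and 11.24 in WT cortex against 11.78 and 11.65 in WT hippocampus. In KO it read 11.27 and 11.52 in cortex against 11.74 and 11.87 in hippocampus. The tissues did not overlap, and the difference was -0.55 ± 0.11 in WT (95% interval -0.81 to -0.29, adjusted p = 0.0182) and -0.42 ± 0.11 in KO (95% interval -0.68 to -0.15, adjusted p = 0.0488). Its second probe gave -0.54 ± 0.11 in WT (adjusted p = 0.0248) and -0.38 ± 0.11 in KO (adjusted p = 0.0804). In the fit over probes the brighter one missed the threshold in KO as well (adjusted p = 0.0579). With outlying local backgrounds kept, the WT call of Grin2b (-0.44, adjusted p = 0.0634) and the KO call of Gria4 (0.39, adjusted p = 0.0830) were lost.

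The obligatory subunit gene Grin1 read between 12.62 and 12.85 in the WT samples and between 12.60 and 12.69 in the KO samples. Its cortex over hippocampus difference was -0.09 ± 0.08 in WT (95% interval -0.29 to 0.11) and 0.05 ± 0.08 in KO (95% interval -0.15 to 0.25). The dimmer Grin1 probe had means of 8.68 in WT cortex and 8.58 in WT hippocampus, and of 8.37 and 8.26 in KO. Grin2c, known best from cerebellum and thalamus, gave 0.09 ± 0.11 in WT and -0.01 ± 0.11 in KO, with 95% intervals of -0.17 to 0.35 and -0.28 to 0.25. Grin3a, whose subunit lowers calcium passage through NMDA receptors, gave -0.16 ± 0.33 and -0.17 ± 0.33, with the widest intervals of the 10 (-0.93 to 0.61 in WT).

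Grin2d, a subunit known from interneurons and deep brain regions, was not well above background on any of the 4 arrays in the WT channel and was so on all 4 in the KO channel. Median signals of negative controls were 247 to 263 in Cy3 (WT) and 79.3 to 80.8 in Cy5 (KO). The floors of the dyes thus differ, and this flag does not compare the genotypes. Its log2 signals were 7.11, 6.99, 7.26 and 7.26 in WT and 7.24, 7.37, 7.25 and 7.51 in KO, cortex samples first. Since only a bound exists for the WT samples and that bound lay below 1-fold, no fold is given for Grin2d.

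Counted over all 10 subunits, cortex and hippocampus values did not overlap for 7 in WT, where the same held for 56.0% of all genes, and for 7 in KO, where it held for 60.1%. The 7 in WT include Grin2d, whose WT values are all readings not well above background, and without it the count is 6 of 9. Without 1 array the calls thinned over all genes as well as among the subunits, so a lost call was not particular to a subunit. Leaving out either cortex array left Gria1 as the only subunit called. Grin2a was then at -0.86 in WT and -0.79 in KO without cortex replicate 1, and at -0.89 and -0.82 without cortex replicate 2. Without hippocampus replicate 1, Gria1 and Grin2a remained called, and without hippocampus replicate 2, the one with the high choroid plexus and thalamic signal, Gria1, Gria4 and Grin2a remained. Over these 4 fits the WT difference ran from 0.38 to 0.54 for Gria4 and from -0.63 to -0.47 for Grin2b, and the KO difference from 0.49 to 0.67 for Gria4, from -0.54 to -0.29 for Grin2b and from -0.56 to -0.32 for Gria2.

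The genes whose pattern over the 8 samples was most like that of Gria1, after the mean of each dye was subtracted, were Sema5a, a semaphorin gene (Pearson r = 0.9996), Trpc4, a cation channel gene (r = 0.9994), and Pcdh20, a protocadherin gene (r = 0.9991). Their WT cortex over hippocampus differences were -1.69, -1.86 and -2.77 on the log2 scale. The 8 samples fall into 2 tissues, and share arrays in pairs, so these r values largely restate the tissue difference.

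The partner genes of these receptors were counted from lists of 49 genes, of which 48 were tested. In WT, 10 were higher and 8 lower in cortex, and in KO 7 were higher and 5 lower. Over all genes tested, 7.20% were higher and 7.77% lower in WT, and 7.54% and 7.29% in KO. The median difference of the partner genes was 0.10 in WT and 0.01 in KO. Of 13 AMPA receptor auxiliary subunits, 3 were higher and 4 lower in WT cortex, and 2 were higher and 3 lower in KO cortex. Of 23 scaffold and trafficking proteins, 5 were higher and 1 lower in WT and 3 were higher in KO. Of 8 other ionotropic glutamate receptor subunits, 1 was higher and 1 lower in each genotype. Of the 4 tested NMDA receptor partners, 1 was higher and 2 lower in WT, and 1 was higher and 1 lower in KO.

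Shisa6, an auxiliary subunit that slows AMPA receptor desensitisation, had the largest partner difference at -3.39 ± 0.12 in WT (adjusted p = 4.98e-05), a 10.5-fold lower signal in cortex, and -3.36 ± 0.12 in KO (adjusted p = 5.66e-05). Cnih2, a cornichon that promotes AMPA receptor export, was also lower in cortex, by -0.67 ± 0.08 in WT and -0.79 ± 0.08 in KO. Among genes higher in cortex were Gsg1l, another AMPA receptor auxiliary subunit, at 1.60 ± 0.10 in WT and 1.65 ± 0.10 in KO, and Cacng3, a transmembrane AMPA receptor regulatory protein, at 0.999 ± 0.12 and 1.02 ± 0.12. Auxiliary subunits of the same receptor class thus lay on opposite sides of 0. Nptx2, a secreted pentraxin that clusters AMPA receptors, was 0.79 ± 0.07 higher in cortex in both genotypes. The kainate receptor genes Grik3 and Grik4 also lay on opposite sides, at 0.97 ± 0.10 and -1.44 ± 0.10 in WT and at 0.92 ± 0.10 and -1.33 ± 0.10 in KO. Neto1, an auxiliary protein of kainate and NMDA receptors, was lower in cortex at -0.56 ± 0.08 in WT and -0.62 ± 0.08 in KO. The adjusted p-values of Cnih2, Gsg1l, Cacng3, Nptx2, Grik3, Grik4 and Neto1 ran from 1.93e-04 to 0.00387. Leaving out a cortex array ended some of these calls, in fits that called fewer of all genes as well. Cnih2 in WT was lost without either one (adjusted p up to 0.0642), as was Neto1 in WT (up to 0.0790). Without cortex replicate 2 Neto1 was lost in KO (0.0656), and without cortex replicate 1 Cacng3 was lost in KO (0.0548).

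**Figure D3:**
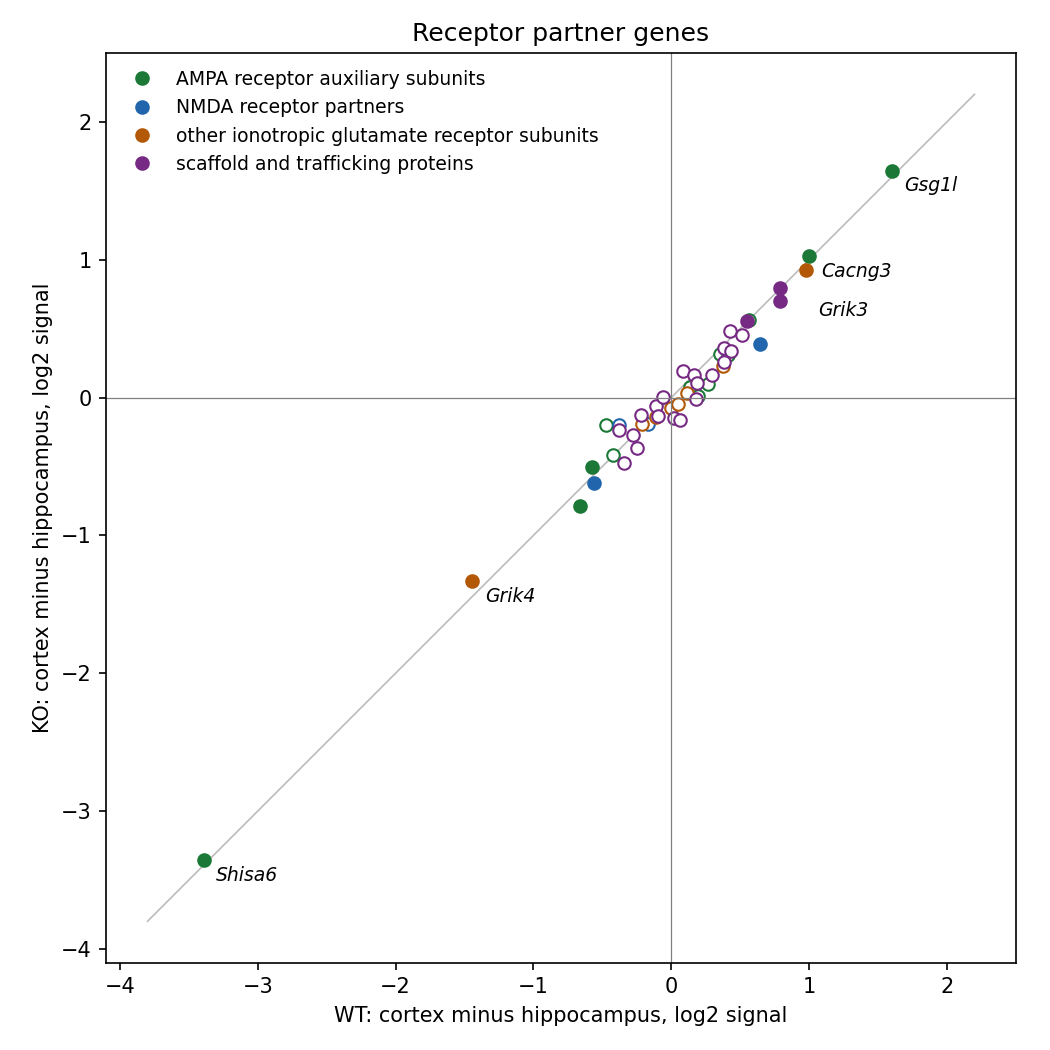
Cortex minus hippocampus difference in log2 signal of the 48 tested partner genes in WT (x axis) and in KO (y axis). Colours give the list, filled points passed at an adjusted p under 0.05 in both genotypes, open points did not, and the grey line marks equal differences. Shisa6 lies at -3.39 and -3.36, and Gsg1l at 1.60 and 1.65.

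The second comparison asked whether the subunits differed between KO and WT. In cortex none of the 10 passed, where 0.0596% of all genes did (10 genes). An unadjusted p under 0.05 was found there for 4 of the 10 subunits and for 3548 of all 16774 genes. In hippocampus none passed, where 0.0179% of all genes did (3 genes). The unadjusted p was under 0.05 there for 2 of the 10 subunits and for 3977 of all 16774 genes. Averaged over both tissues, only Gria2 passed, where 10.9% of all genes did (7.12% higher and 3.78% lower in KO). The median log2 ratio of the 9 subunits other than Grin2d was 0.11 in that average, beside 0.03 over all genes. All these ratios set Cy5 over Cy3, with no dye swap. Of the genes called in the average, 65.3% were higher in KO with loess, against 82.8% and 45.1% when the arrays were centred on the median of all spots and of the genes tested.

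Gria2 had log2 KO over WT ratios of 0.37 and 0.19 on the cortex arrays and of 0.34 and 0.45 on the hippocampus arrays. All 4 were above 0, and their mean was 0.34 ± 0.06 (95% interval 0.19 to 0.48, adjusted p = 0.0384), a 1.26-fold higher signal in KO. The dimmer Gria2 probe lay on both sides of 0: its ratios were -0.47, 0.14, -0.14 and 0.03 in the same order, with a mean of -0.11 ± 0.11 (adjusted p = 0.524). Taking the mean of both probes gave 0.11 for the gene (adjusted p = 0.249), keeping outlying local backgrounds gave 0.21 (adjusted p = 0.155), and the scanner's processed signals gave 0.40 (adjusted p = 0.0541). Leaving out cortex replicate 1 or 2 gave 0.29 or 0.38, and leaving out hippocampus replicate 1 or 2 gave 0.37 or 0.31. The call was lost in all 4 of these fits, in which almost no gene at all was called.

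Of the other subunits, Gria4 and Grin3a were above 0 and Gria1 and Grin2c below 0 on all 4 arrays. With Gria2, that made 3 of 10 subunits above 0 on every array, where 28.1% of all genes were, and 2 of 10 below 0, where 17.6% were. None of the 4 passed. Grin3a had ratios of 0.78 and 0.92 in cortex and 0.30 and 1.43 in hippocampus, with a mean of 0.86 ± 0.19 (95% interval 0.35 to 1.37, adjusted p = 0.0597). Its hippocampus replicates differed more from each other than those of any other subunit. Gria4 had a mean of 0.20 ± 0.04 (adjusted p = 0.0584), but its dimmer probe had 0.11 on hippocampus replicate 1 and values from -0.13 to -0.10 on the other arrays. Grin2c had ratios of -0.36, -0.25, -0.11 and -0.29 and a mean of -0.25 ± 0.06 (adjusted p = 0.0573). Gria1 lay between -0.21 and -0.04, with a mean of -0.12 ± 0.05 (adjusted p = 0.162).

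Probes of Grin1 also gave different answers. The brighter probe had ratios of 0.02, -0.03, -0.25 and -0.03 and a mean of -0.07 ± 0.06 that did not pass (adjusted p = 0.423 in the fit over probes). The dimmer probe had ratios of -0.20, -0.42, -0.34 and -0.30, and its mean of -0.32 ± 0.06 passed (adjusted p = 0.0390). Its group means ran from 8.26 to 8.68. No alternative was run for the fit over probes, so whether this call is stable was not tested. In that fit 12.3% of all probes passed (8.24% higher and 4.06% lower in KO). Of the 16 subunit probes 1 was higher in KO, the brighter one of Gria2, and 1 was lower, the dimmer one of Grin1. The remaining means were 0.05 ± 0.05 for Gria3, 0.11 ± 0.05 for Grin2a and 0.16 ± 0.06 for Grin2b, none of which passed. The dimmer probes of these genes gave 0.17 ± 0.07, 0.27 ± 0.11 and -0.07 ± 0.06. They did not pass either (adjusted p = 0.142, 0.154 and 0.493 in the fit over probes). Those of Gria3 and Grin2a were above 0 on all 4 arrays, and the 2 Grin2b probes had means of opposite sign. No ratio from the main fit is given in the text for Grin2d, for which only a bound exists in WT. Its ratios under other processing, listed further on, rest on WT signals not well above background.

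**Figure D4:**
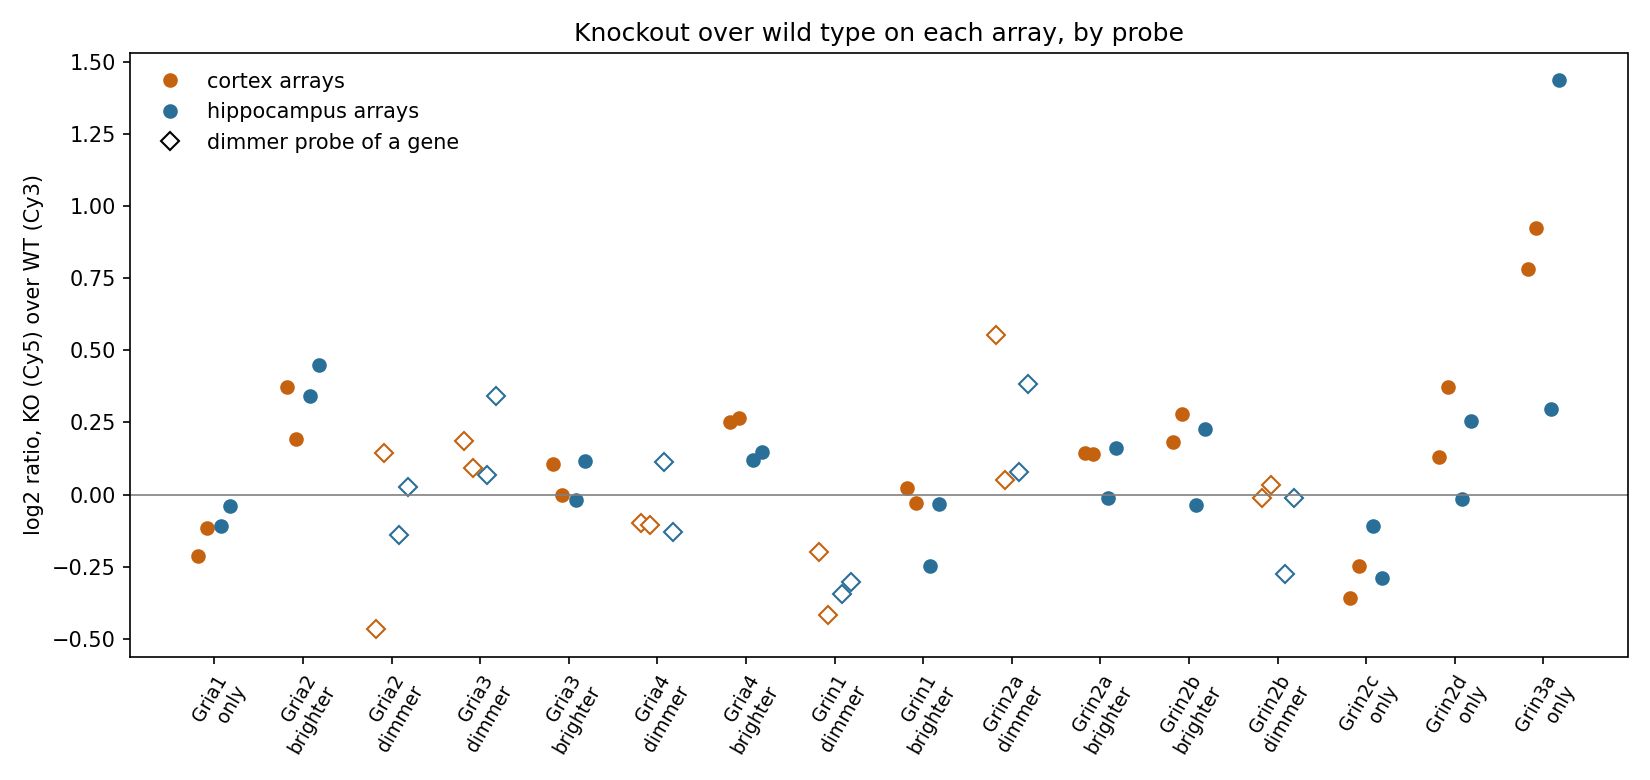
Log2 ratio of KO (Cy5) over WT (Cy3) on each of the 4 arrays (y axis) for the 16 subunit probes (x axis), orange for cortex and blue for hippocampus; filled circles are the brightest probe of a gene and open diamonds the dimmer one. The brighter Gria2 probe lies above 0 on all arrays and its dimmer probe on both sides of 0, while the dimmer Grin1 probe lies below 0 on all arrays. The Grin2d ratios use WT signals not well above background.

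The KO over WT ratio in cortex was also compared with that in hippocampus. No subunit and 0% of all genes passed in limma's test, with 749 genes and none of the 10 subunits at an unadjusted p under 0.05. The difference, cortex minus hippocampus, ran from -0.11 for Gria2 (95% interval -0.40 to 0.18) to 0.14 for Grin1 (95% interval -0.16 to 0.43). The interval of Grin3a reached from -1.03 to 1.01.

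Among the 48 partner genes, none passed in KO over WT in either tissue alone. An unadjusted p under 0.05 was found for 3548 genes in cortex and 3977 in hippocampus, of 16774 tested. The same held for 7 of the partner genes in each tissue. In the average of both tissues 2 were higher and 2 lower, where 10.9% of all genes passed (7.12% higher and 3.78% lower). None of the calls named next held when any 1 array was left out. Almost no gene at all was called in those fits, so this loss says nothing particular about these genes. Shank2, a postsynaptic scaffold, had ratios of -0.82 and -0.82 in cortex and -0.78 and -0.49 in hippocampus, with a mean of -0.73 ± 0.07 (adjusted p = 0.0231). With the mean of its probes Shank2 was at -0.49 (adjusted p = 0.0253), and over all alternatives it ran from -1.17 to -0.40. Dlg4, which encodes the PSD-95 scaffold that anchors both receptor classes, had a mean of -0.32 ± 0.06 (adjusted p = 0.0416), with ratios from -0.47 to -0.11. Gripap1, a regulator of AMPA receptor recycling, was higher at 0.42 ± 0.07 (adjusted p = 0.0379), with ratios from 0.28 to 0.57. Leaving out 1 array in turn gave means from -0.80 to -0.65 for Shank2, from -0.37 to -0.27 for Dlg4 and from 0.35 to 0.49 for Gripap1. Keeping outlying local backgrounds also ended all 3 calls (adjusted p = 0.126, 0.129 and 0.167). The scanner's processed signals ended those of Dlg4 (adjusted p = 0.10) and Gripap1 (adjusted p = 0.0678), and Dlg4 turned to 0.40 when arrays were centred on all spots, below the 0.53 of the median gene there.

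Beside the KO over WT values, the marker lists gave these counts. In the average, 7.12% of all genes were called higher in KO and 3.78% lower. All 5 endothelial markers had ratios below 0 in both tissues (median -0.080 in cortex and -0.26 in hippocampus), and 1 was called lower in the average. Endothelial marker sums were 16961 and 19502 in WT cortex against 13959 and 15040 in KO cortex, and 17337 and 18787 in WT hippocampus against 12037 and 13905 in KO hippocampus. All 6 microglial markers were below 0 in cortex (median -0.24) and 3 of 6 in hippocampus, and 2 were called lower in the average. All 9 striatal markers were below 0 in cortex (median -0.35) and 5 of 9 in hippocampus, with none called. All 9 choroid plexus markers were above 0 in cortex (median 1.37) and below 0 in hippocampus (median -1.45), with none called. All 7 thalamic markers were below 0 in hippocampus (median -0.55), and 1 was called lower in the average. Excitatory neuron markers were above 0 for 4 of 6 in each tissue. Inhibitory neuron markers were so for 7 of 8 in cortex and 5 of 8 in hippocampus. Oligodendrocyte markers were below 0 for 4 of 7 in cortex and 6 of 7 in hippocampus, and astrocyte markers for 4 of 7 in each. No gene of these lists was called. In the average, 2 cortical and 2 hippocampal markers were called higher. The part of such cell type differences in the KO over WT ratios was not tested.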

How the data were processed

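Per the file headers, the deposited spot intensity values of both channels come from Feature Extraction 10.1.1.1, and probe positions are on mm9. The authors also deposited log2 values per channel, and the submitters' processing notes name limma. These log2 values were an alternative only. The files of the samples of one tissue and number were identical, so 8 samples are 4 arrays, on 1 slide and from 1 scan. R 4.3.3 and limma 3.58.1 were used. Mean signals were corrected by normexp (offset 50), with outlying local backgrounds replaced by the array's median background, and normalised by loess (span 0.3, 1377 control spots at weight 0) and Aquantile. Outlier spots were left out, spots of a probe were averaged and the brightest probe stood for a gene. Genes stayed in if some group of the 4 had them well above background on its 2 arrays, and 29 genes lacking a value after outlier removal were dropped. KO over WT used lmFit and eBayes on 4 log ratios. Cortex over hippocampus used a separate-channel fit of 8 samples (correlation within spots 0.19). Adjusted p-values are Benjamini-Hochberg over all genes or probes tested, with a threshold of 0.05, and errors are SE. The fits were tested on simulated data. With 2 arrays per tissue, their number limits the precision.

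The subunits and lists were chosen with earlier results of these data known. All subunits and probes were reported, and of the partner genes up to 4 higher and 4 lower per comparison with the smallest p. Of these, 1 that passed in KO over WT is in the counts but not reported here. The labels do not say that a replicate number marks a shared animal, so the replicate number was not used as a block. Alternatives covered the background, normalisation, filter, probe rule, variance model, blocks and each array left out.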

Additional observations from a re-analysis of the deposited data

Results flagged for a closer look

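For each of the 16 subunit probes, the 4 KO over WT log2 ratios were checked for 1 array far from the other 3 by Dixon's ratio. For independent, normally spread values such a check marks about 1 in 20 sets by chance, and it marked 3 of 16 here. Each time the array was hippocampus replicate 1. The check covered the subunit probes only, without the share marked over all probes. The count, and the array it falls on, are therefore not shown to be particular to the subunits. The dimmer Grin2b probe read -0.28 there and between -0.011 and 0.032 on the other arrays. The dimmer Gria4 probe read 0.11 there and between -0.13 and -0.10 on the others. The brighter Grin2a probe read -0.012 there and between 0.14 and 0.16 on the others. None of these probes passed in KO over WT, and the cause was not tested.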

How the results depend on the processing

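With 4 arrays, few degrees of freedom and no dye swap, calls of the smaller differences were not stable, and KO over WT depended on the processing far more than cortex over hippocampus did. Gria1 was lower in cortex and called in both genotypes under all 16 alternatives, from -1.67 to -1.47 in WT and from -1.79 to -1.61 in KO. Gria4, Grin2a and Grin2b kept their direction in both genotypes under all 16. The WT call was lost in 3, 2 and 5 of them and the KO call in 4, 2 and 8, and where no array was left out the cause was not tested. Gria2 in KO lost its call in 5. The Gria2 call in the KO over WT average was lost in 7 of 15, with values from 0.11 to 0.84. The 0.84 came from centring arrays on all spots, where the median gene was at 0.53 and Gria2 at 0.31 relative to it. Grin2d gave no value under the strict filter, and leaving out normalisation between arrays applies only to tissue comparisons, where it moved the median over all genes from -0.03 to 0.10 in WT and from -0.01 to 0.11 in KO. The p-values of tests with 1 array left in a tissue assume that it varies like the others.

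The count of genes called in KO over WT, 10 in cortex, 3 in hippocampus and 1829 in the average, became 0, 7 and 3 with outlying local backgrounds kept, 138, 372 and 1204 with the processed signals of Feature Extraction, 22 and 16 in the single tissues with the deposited log2 values, 17, 10 and 995 with the strict filter on dim probes and 28, 10 and 3366 with none. It became 40 in cortex with the mean of a gene's probes, and 28 and 60 in the single tissues with an intensity trend and robust estimation. With the replicate block it became 155 and 431 in the single tissues and 2472 in the average, and with no array block 295 and 452 in the single tissues. Deviations of cortex and hippocampus samples of one number from their group means correlated over genes at r = -0.08 in WT and 0.24 in KO, so whether the number pairs the samples is not settled, and the block changed no call of a subunit except Grin3a in the average, which it added. In the average, 65.3% of called genes were higher in KO, against 73.7% with processed signals, 54.3% with the strict filter and 52.6% with none.

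Of the subunits, the 1 called in the KO over WT average became 0 with backgrounds kept, with processed signals and with the mean of probes, 4 with the deposited values, 3 with the intensity trend, and 2 with no filter, with the replicate block and with no array block. Of all 16774 genes, the 1829 called in that average became 2362 with the deposited values, 2265 with the intensity trend and 2421 with no array block. With the mean of probes 1799 of 16812 were called, and with no filter 3366 of 23644. In KO cortex over hippocampus, 5 called subunits became 3 with no normalisation between arrays, where 2487 called genes became 2205. With 1 array left out in turn, genes called in KO over WT ranged from 0 to 0 in cortex, from 0 to 1 in hippocampus and from 0 to 1 in the average, and those in cortex over hippocampus from 723 to 1981 in WT and from 644 to 1934 in KO. Called subunits ranged from 0 to 0 in the KO over WT average and from 1 to 3 in each tissue comparison.

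Centring each array on the median of all spots, in place of loess, put the median of the genes tested between 0.49 and 0.58, so a second centring, on the genes tested, was added after that was seen. On all spots 13715, 13360 and 14482 genes and 9, 9 and 10 subunits were called in KO over WT in cortex, hippocampus and the average, and 114 genes in the difference between tissues. On the genes tested it was 7364, 8366 and 10517 genes and 3, 4 and 7 subunits. Grin2d, with WT signals not well above background, is counted in the 10 and in the 3, 4 and 7. The others called on the genes tested were Gria4 and Grin2b in cortex and Gria2, Gria4 and Grin2a in hippocampus. In the average they were Gria2, Gria3, Gria4, Grin2a, Grin2b and Grin3a. The signs that turned on all spots include the common shift of 0.54 in cortex, 0.53 in hippocampus and 0.53 in the average. They turned in cortex, hippocampus and the average for Gria1 (0.52, 0.74 and 0.63), Grin1 (0.71, 0.60 and 0.66), Grin2c (0.41, 0.53 and 0.47) and Grin2d (-0.23, -0.20 and -0.22). Relative to the median gene, Gria1 was at -0.017, 0.21 and 0.10 and Grin2c at -0.13, 0.0053 and -0.058, so Gria1 in cortex and Grin2c in cortex and the average kept their side. Dlg4, a partner gene, turned in the average (0.40) and stayed below the median gene. The Grin2d values rest on WT signals not well above background. On the genes tested they turned for Grin1 (0.18, 0.076 and 0.13), Grin2d (-0.77, -0.73 and -0.75), Gria1 in hippocampus (0.21) and the average (0.097), and Grin2c in hippocampus (0.0063). In the cortex minus hippocampus difference of the ratios, Gria3 (-0.0093) and Grin2d (-0.026) turned on all spots, and Gria3 (-0.021), Grin2a (-0.0090) and Grin2d (-0.037) on the genes tested.

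The other signs that turned belonged to values that had not passed. With backgrounds kept these were Gria3 in cortex (-0.17) and the average (-0.066) and Grin2a in cortex (-0.011) of KO over WT, Grin1 in cortex over hippocampus (0.014 in WT and -0.054 in KO), and, in the difference of the ratios, Gria3 (-0.21), Gria4 (-0.11), Grin1 (-0.068), Grin2a (-0.076), Grin2b (-0.024) and Grin2d (-0.056). KO over WT of Grin1 in cortex turned with processed signals (0.0036) and with the deposited values (0.0082), and the Gria3 difference of the ratios with processed signals (-0.011) and the mean of probes (-0.031). The mean of probes also turned Grin2b in hippocampus of KO over WT (-0.024) and Grin1 in WT cortex over hippocampus (0.0084), and leaving out normalisation between arrays turned Grin2c (0.069) and Grin2d (0.074) in KO.

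With 1 array left out, KO over WT ran from -0.0015 to 0.11 for Gria3 and from -0.031 to 0.023 for Grin1 in cortex. In hippocampus it ran from -0.020 to 0.12 for Gria3, from -0.012 to 0.16 for Grin2a, from -0.036 to 0.23 for Grin2b and from -0.015 to 0.26 for Grin2d. The KO over WT values of Grin2d use WT signals not well above background. The difference of the ratios ran from -0.064 to 0.072 for Gria3, from -0.017 to 0.16 for Grin2a, from -0.0039 to 0.27 for Grin2d and from -0.58 to 0.56 for Grin3a. Cortex over hippocampus ran from -0.18 to 0.0053 for Grin1 in WT and, in KO, from -0.15 to 0.12 for Grin2c, from -0.21 to 0.060 for Grin2d and from -0.69 to 0.35 for Grin3a.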
